A study of Homo sapiens with 4 samples.

Results

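The genes examined are 10 factors and feedback genes of the NF-kappaB pathway, *NFKBIA*, *NFKBIE*, *NFKBIZ*, *TNFAIP3*, *NFKB1*, *NFKB2*, *RELB*, *BCL3*, *BIRC3* and *CD83*. A probe was taken as a probe of one of these genes when the array design paired it with a transcript of that gene. This rule found 10 probes for 9 of the 10 genes, out of 17721 genes that were named on the arrays in the same way. *NFKB2* had no matched probe, and its mRNA was not analysed here.

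The human pre-B cell line Nalm-6 was used throughout, and total RNA was labelled with Cy3 and hybridized to single-color Agilent arrays, 1 for each of 4 groups grown without oxidative stress. The groups were wild-type, Arp5 KO and Arp8 KO lines and cells labelled Arp8 overexpression, here called Arp8 OE-labelled cells. Arp5 and Arp8 are actin-related proteins of the INO80 chromatin remodeling complex, and the KO cells were used to ask what these subunits do in transcription. In Arp5 KO cells both alleles of the gene had been disrupted by homologous recombination, and in Arp8 KO cells the Arp8 locus had been disrupted in the same manner. The overexpression of Arp8 was brought about with a tetracycline-regulated (Tet-Off) system in the Arp8 KO cells. Whether tetracycline or a related drug was in the medium is not given in the sources used here, and each genotype is represented by a single cell line. No difference has a replicate check, no p-value is given, and the number of arrays limits the precision.

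NF-kappaB is a family of transcription factors that act as dimers of RelA, c-Rel, RelB and the products of *NFKB1* and *NFKB2*. IkappaB proteins hold these dimers in the cytoplasm until a signal from a receptor leads to the destruction of the inhibitor, after which the dimers enter the nucleus and switch on genes of inflammation and survival. Several of the genes that are switched on encode inhibitors of the same pathway, so that it limits itself, and in B-lineage cells it acts downstream of antigen, CD40, BAFF and Toll-like receptors.

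The signal of a probe is given in the units of the scanner software, after its background subtraction and before any scaling between arrays. A probe was well above background on an array when the software marked most of its spots so. The spots so marked numbered 31188 of 43376 in wild-type cells, 31420 in Arp5 KO, 30394 in Arp8 KO and 30803 in Arp8 OE-labelled cells. For a log2 ratio each array was scaled to its own 75th percentile, and the brighter array had to be well above background. Where the dimmer array was not, it was set to at least the lowest signal well above background, which makes the ratio a minimum. Some probes lie on an array several times, and the spread over their spots was used as the technical error. For Arp5 KO over wild-type cells the median SD of a log2 ratio was 0.44 where the dimmest signal was under 50 units (81 probes), 0.06 from 50 to 500 units (38 probes) and 0.03 above (145 probes). Variation between cultures is not part of it.

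The targeted genes were examined first. *ACTR5*, which encodes Arp5, gave 1909 units in wild-type, 65.3 in Arp5 KO, 1849 in Arp8 KO and 2088 in Arp8 OE-labelled cells. The low array was that of Arp5 KO cells, with a log2 ratio over wild-type cells of -4.85. *ACTR8*, which encodes Arp8, gave 2149 units in wild-type, 2233 in Arp5 KO, 1654 in Arp8 KO and 1857 in Arp8 OE-labelled cells with probe A_24_P131697. Probe A_23_P80694 of the same gene gave 1092 units in wild-type, 993 in Arp5 KO, 785 in Arp8 KO and 679 in Arp8 OE-labelled cells. With both probes *ACTR8* was thus lower in Arp8 OE-labelled than in wild-type cells, so these probes do not bear out that label. Arp8 KO cells kept most of the signal, with log2 ratios over wild-type cells of -0.40 and -0.49, so these probes do not bear out the Arp8 KO label either. The part of each mRNA that these probes cover was not examined, so the *ACTR8* probes may lie outside the disrupted part. Whether they cover the *ACTR8* mRNA made with the Tet-Off system was not examined either. *INO80*, the ATPase of the complex, had log2 ratios over wild-type cells of 0.82 in Arp5 KO, 1.01 in Arp8 KO and 0.20 in Arp8 OE-labelled cells.

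The cell type was checked with marker genes. The pre-B markers *CD79A*, *CD79B*, *VPREB1*, *IGLL1*, *PAX5*, *EBF1*, *MME*, *RAG1* and *DNTT* were well above background on all 4 arrays. Of the T cell markers, *CD3D* and *CD3G* were not well above background on any array, while *CD3E* and *CD2* were, at under 50 units. The natural killer cell markers *KLRD1* and *GNLY*, the erythroid marker *HBB* and the myeloid marker *MPO* were not well above background on any array. *NKG7*, *HBA1*, *CD14*, *LYZ* and *CSF1R* were well above background on all 4. The plasma cell markers *SDC1* and *PRDM1* were as well. The brighter probe of *SDC1* gave 11604 units in wild-type, 11420 in Arp5 KO, 13269 in Arp8 KO and 13669 in Arp8 OE-labelled cells. *PRDM1* gave 44.2 units in wild-type, 94.1 in Arp5 KO, 62.4 in Arp8 KO and 63.8 in Arp8 OE-labelled cells. The summed signal of the myeloid markers was 194 units in wild-type, 188 in Arp5 KO, 287 in Arp8 KO and 282 in Arp8 OE-labelled cells. *LYZ* made most of this difference, at 55.4, 46.3, 143 and 140 units in the same order. The part of these genes in the results was not tested.

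NF-kappaB dimers bind a DNA element known as the kappaB site. The promoters of the members were searched for the kappaB consensus, a 10-base motif, on both strands of windows that reach from 250 bases before to 50 bases after a transcription start. The RefSeq promoter table (GRCh38.p14) holds 13 such windows for 8 of the 10 members, and *NFKBIE* and *RELB* are not among them. The consensus occurred in 10 of the 13 windows and in at least 1 window of each of the 8 genes, against 11.3% of all 35116 windows in the table. It occurred 2 or more times in 5 of the 13 windows, against 2.04% of all windows. The 20 matches include some that overlap each other, on the same strand or on opposite strands. The motif TGANTCA, bound by AP-1 factors such as Fos and Jun, was in 0 of the 13 windows and in 7.71% of all windows. The members include known NF-kappaB targets, and a match describes the sequence only. A selection of the matches is shown, for 6 of the 8 genes, and the map of matches by distance from the transcription start holds all 20. Capitals mark the match, and each sequence is written 5′ to 3′ on the strand of the gene, which is the minus strand for *NFKBIA* and the plus strand for the others.
NFKBIA (chr14:35404811-35404840): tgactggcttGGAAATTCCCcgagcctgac
NFKBIZ (chr3:101827757-101827786): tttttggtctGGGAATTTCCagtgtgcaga
TNFAIP3 (chr6:137867182-137867211): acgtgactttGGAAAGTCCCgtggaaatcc
TNFAIP3 (chr6:137867194-137867223): aaagtcccgtGGAAATCCCCgggcctacaa
NFKB1 (chr4:102501300-102501329): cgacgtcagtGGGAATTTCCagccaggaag
BCL3 (chr19:44748700-44748729): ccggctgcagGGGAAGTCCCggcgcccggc
CD83 (chr6:14117687-14117716): ctgcccgccgGGGAATCCCCcgggctggcg
The match of *BCL3* lies from base 3 to base 12 after the start, and the other matches of these 8 genes lie before the start.

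**Figure D1:**
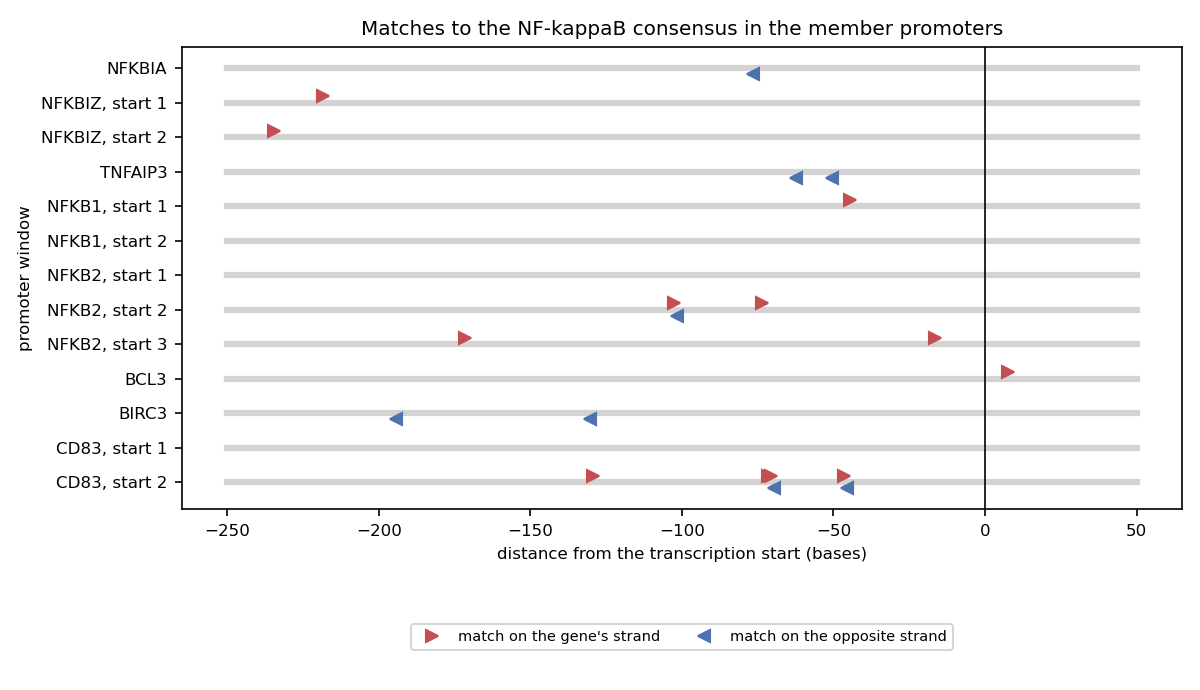
Matches to the kappaB consensus in the 13 promoter windows of 8 member genes, by their distance from the transcription start in bases. Grey lines are the windows and triangles the matches, pointing right on the strand of the gene and left on the opposite strand, and 10 of the 13 windows hold at least 1.

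Of the members that could be read, all stayed within 2-fold of wild-type cells on every array except *BCL3* in Arp5 KO cells. In Arp5 KO cells 1 of the 8 members that could be read was higher than in wild-type cells beyond 2-fold and 0 were lower, against 1.16% of all genes higher and 1.4% lower. In Arp8 KO cells 0 of 8 were higher and 0 lower, against 1.82% and 1.93% of all genes. Arp8 OE-labelled cells also had 0 of 8 higher and 0 lower than wild-type cells, against 1.86% and 1.96%. The median log2 ratio of the members over wild-type cells was 0.21 in Arp5 KO, 0.32 in Arp8 KO and 0.05 in Arp8 OE-labelled cells, beside 0.03, 0.04 and 0.04 over all genes. The small median of Arp8 OE-labelled cells changed sign with quantile normalization and with outlier-marked spots kept. Of the 8 members, 6 had a ratio above 0 in Arp5 KO, 6 in Arp8 KO and 4 in Arp8 OE-labelled cells, against 7499 of 13714, 7475 of 13575 and 7619 of 13653 genes overall. These comparisons share the wild-type array. *BIRC3* is missing from them because its wild-type spot was marked as an outlier, and with that spot kept it was lower than in wild-type cells beyond 2-fold in each of the 3 comparisons, so that 1 of 9 members was lower instead of 0, against 1.53%, 2.06% and 2.07% of all genes in the order Arp5 KO, Arp8 KO and Arp8 OE-labelled cells.

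**Figure D2:**
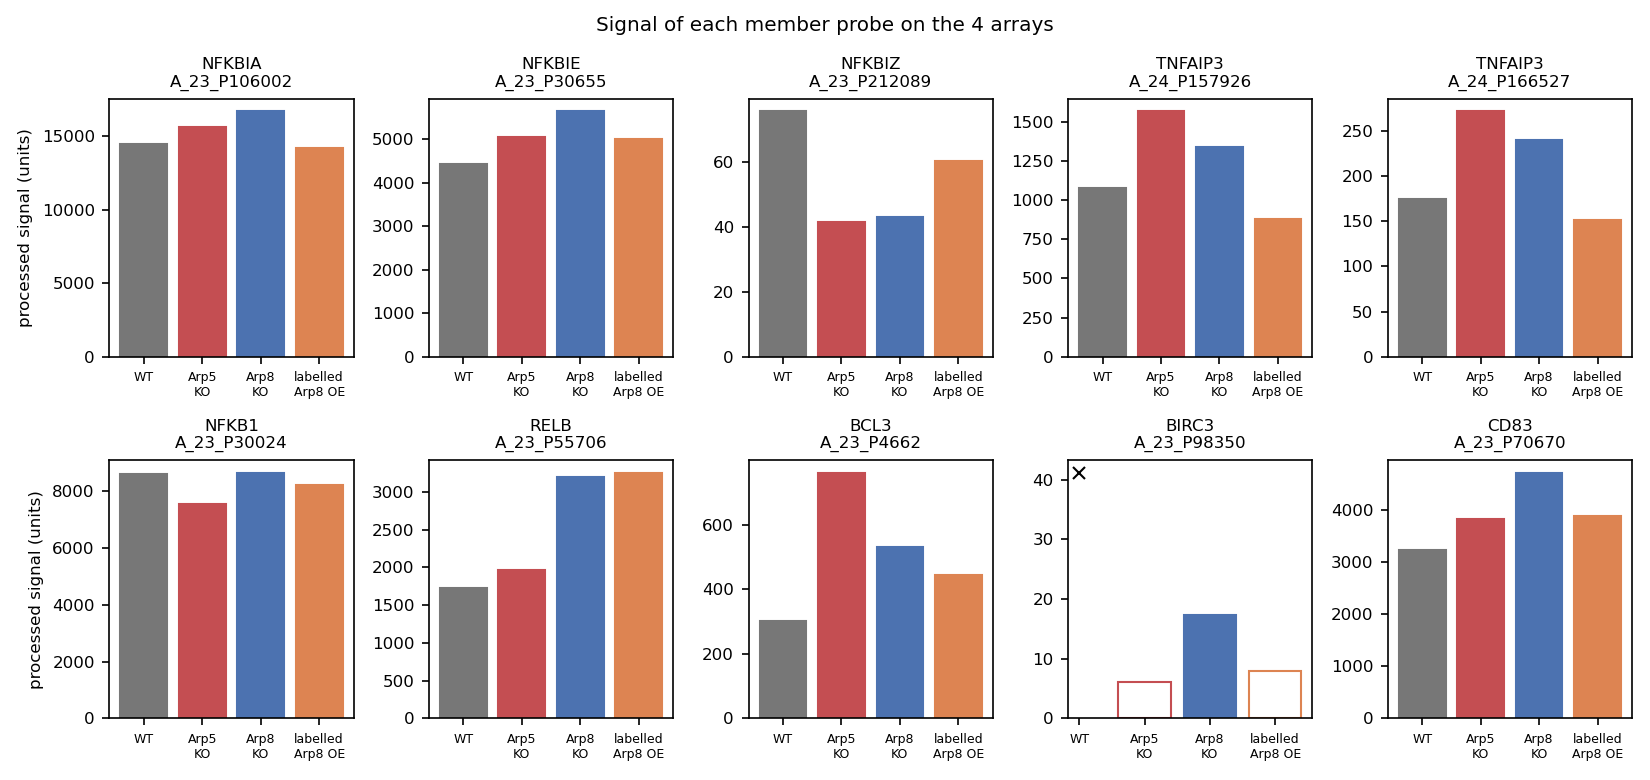
Processed signal in units of the 10 probes of the member genes in wild-type (WT), Arp5 KO, Arp8 KO and Arp8 OE-labelled cells, with 1 array per bar and each axis from 0. Open bars were not well above background, the cross is the wild-type spot of *BIRC3* that was marked as an outlier, and the bar of *BCL3* is highest in Arp5 KO cells at 761 units.

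The classical inhibitors among the members, *NFKBIA* and *NFKBIE*, were close to their wild-type level on every array. *NFKBIB*, which is not a member, was lower, with log2 ratios over wild-type cells of -0.44 in Arp5 KO, -0.35 in Arp8 KO and -0.30 in Arp8 OE-labelled cells. *NFKBIA*, which encodes IkappaBalpha, the inhibitor that NF-kappaB restores soon after activation, gave 14484 units in wild-type, 15640.1 in Arp5 KO, 16682 in Arp8 KO and 14195 in Arp8 OE-labelled cells. Its log2 ratio over wild-type cells was 0.13 in Arp5 KO, 0.19 in Arp8 KO and -0.05 in Arp8 OE-labelled cells, and with other scalings the first fell to 0.077 and the last to -0.15 at the lowest. With the main scaling *NFKBIA* stayed within 1.18-fold in each of the 4 comparisons, although the ratios of both KO cells are larger than the technical SD of 0.03 for bright probes. *NFKBIE*, which encodes IkappaBepsilon, gave 4441 units in wild-type, 5044 in Arp5 KO, 5645 in Arp8 KO and 5012 in Arp8 OE-labelled cells. It was lowest in wild-type cells and highest in Arp8 KO cells, with log2 ratios over wild-type cells of 0.21, 0.33 and 0.15 in the order Arp5 KO, Arp8 KO and Arp8 OE-labelled cells.

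The atypical IkappaB proteins act in the nucleus, where they bind NF-kappaB dimers on DNA and can raise or lower transcription. *NFKBIZ*, which encodes IkappaBzeta, and *BCL3*, whose product binds dimers of the *NFKB1* and *NFKB2* products, were displaced in opposite directions in the KO cells. *NFKBIZ* gave 75.6 units in wild-type, 41.6 in Arp5 KO, 43.1 in Arp8 KO and 60.3 in Arp8 OE-labelled cells. It was lower in both KO cells, with log2 ratios over wild-type cells of -0.84 and -0.83, and lay between in Arp8 OE-labelled cells, with -0.35. With normexp, which adds an offset and so shrinks the ratios of dim probes, the ratios of the KO cells were -0.38 and -0.52. These are dim signals. The technical SD is 0.44 for Arp5 KO and 0.46 for Arp8 KO over wild-type cells among all probes under 50 units. Among probes with a dimmest signal from 20 to 100 units, a range chosen after the data were seen, it was 0.11 for 19 repeated probes and 0.11 for 14. In bulk RNA a lower level in every cell and a loss of the mRNA from some cells cannot be told apart.

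Among the 8 members with well above background signal on each array, *BCL3* had the widest range. It gave 303 units in wild-type, 761 in Arp5 KO, 529 in Arp8 KO and 445 in Arp8 OE-labelled cells. All 3 other arrays lay above wild-type cells, and Arp5 KO cells were the highest. Its log2 ratio over wild-type cells reached 1.35 in Arp5 KO cells, a 2.55-fold difference, beside 0.79 in Arp8 KO cells and 0.53 in Arp8 OE-labelled cells, with a technical SD between 0.06 and 0.07. In Arp5 KO cells 99.5% of the 13714 genes had a lower ratio than *BCL3*. At a threshold of 3-fold no member was counted as higher in Arp5 KO cells, against 0.328% of all genes. The plasma cell marker *PRDM1* also lay above wild-type cells on the other arrays. Its log2 ratios were 1.11 in Arp5 KO, 0.48 in Arp8 KO and 0.51 in Arp8 OE-labelled cells. The wild-type signal of *PRDM1* was under 50 units, where the technical SD is 0.44 to 0.46. Its ratios were thus 2.5, 1.05 and 1.16 times the technical SD in the same order. The log2 ratios of *SDC1*, the other plasma cell marker, were -0.0006 in Arp5 KO, 0.18 in Arp8 KO and 0.21 in Arp8 OE-labelled cells. The part of these markers in the level of *BCL3* was not tested.

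The genes whose ratios over wild-type cells were most like those of *BCL3* were sought among 12957 other genes well above background on all 4 arrays. The measure was the Euclidean distance over the 3 log2 ratios over wild-type cells, which share that array. The 5 nearest genes were *SPATA9*, *HSBP1L1*, *PAQR6*, *KLRC4* and *MSR1*, at distances from 0.12 to 0.22. *SPATA9*, the nearest, gave 115 units in wild-type, 270 in Arp5 KO, 204 in Arp8 KO and 161 in Arp8 OE-labelled cells. None of the 5 belongs to the lists of NF-kappaB pathway genes used here. The largest of these lists has 22 genes well above background on all 4 arrays, so any 5 of the 12957 genes would hold few or none.

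Among the subunits, *RELB* was higher on the Arp8 arrays, and *NFKB1* stayed close to its wild-type level. *RELB* encodes the subunit that pairs with the *NFKB2* product in the noncanonical pathway. It gave 1729 units in wild-type, 1963 in Arp5 KO, 3201 in Arp8 KO and 3254 in Arp8 OE-labelled cells. Wild-type and Arp5 KO cells formed a low pair and the Arp8 arrays a high pair. Arp5 KO cells had a log2 ratio over wild-type cells of 0.21, and 0.13 with normexp, against 0.87 in Arp8 KO cells and 0.89 in Arp8 OE-labelled cells. *LYZ*, and with it the summed signal of the myeloid markers, was also higher on the Arp8 arrays. *CSF1R*, at under 50 units, had log2 ratios over wild-type cells of 0.53 in Arp8 KO and 1.17 in Arp8 OE-labelled cells. The technical SD of these ratios is 0.46 and 0.44, so that of Arp8 KO cells is only 1.15 times its SD. *CD14* had log2 ratios over wild-type cells of 0.02 in Arp8 KO and -0.14 in Arp8 OE-labelled cells, and *MPO* was not well above background. The part of these markers in the level of *RELB* was not tested. Between the Arp8 arrays the log2 ratio of *RELB* was -0.02, which is within the technical SD of 0.03, and its sign depends on the scaling.

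*NFKB1* encodes p105, the precursor of the p50 subunit and itself an inhibitor. Its probe lies in 10 spots on each array, of which 9 were kept in Arp8 OE-labelled cells. The spots gave 8191 to 9334 units in wild-type cells with a median of 8502, 7229 to 8015 units in Arp5 KO cells with a median of 7544 and 8304 to 9135 units in Arp8 KO cells with a median of 8697. In Arp8 OE-labelled cells they gave 7782 to 8703 units with a median of 8172. The spots of Arp5 KO cells lay below those of wild-type and Arp8 KO cells with no overlap, while the spots of the other arrays overlapped each other. The Arp5 KO array had a log2 ratio over wild-type cells of -0.16 and the Arp8 KO array of -0.01, the latter with a sign that depends on the scaling. Spots of an array share its RNA, so they show the technical error only.

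**Figure D3:**
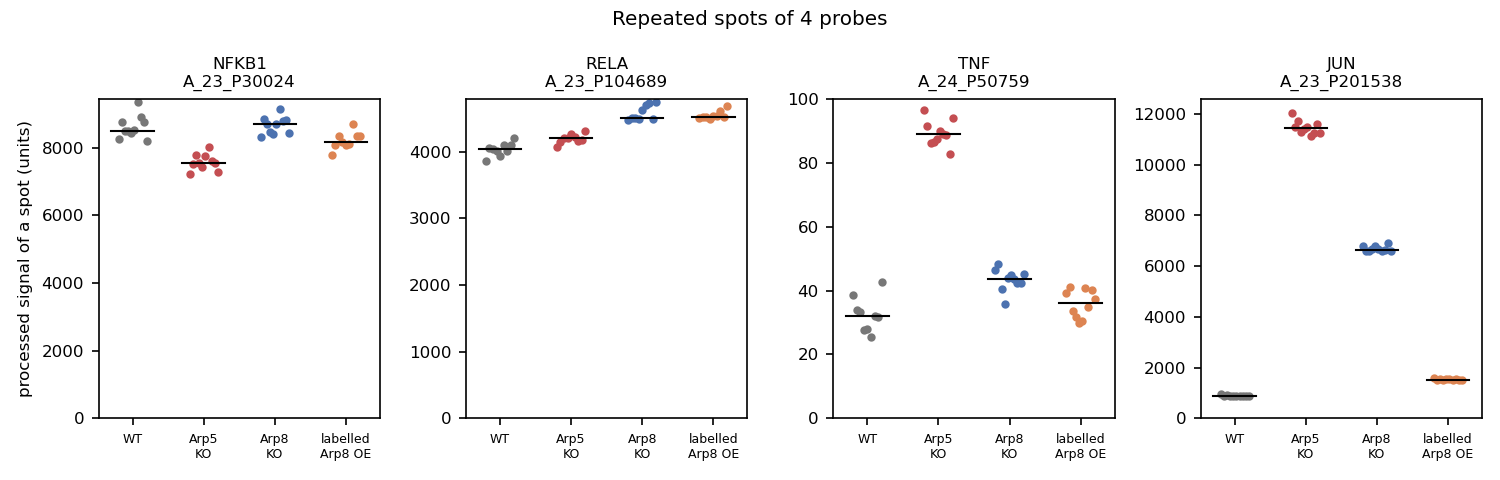
Processed signal in units of every kept spot of a probe of *NFKB1*, *RELA*, *TNF* and *JUN* on the 4 arrays, with the median as a line and each axis from 0. The *NFKB1* spots of Arp5 KO cells end at 8015 units, below the lowest spot of wild-type cells at 8191.

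*TNFAIP3* encodes A20, a ubiquitin-editing enzyme that NF-kappaB induces and that shuts down the signal to the IkappaB kinases. Probe A_24_P157926 gave 1075 units in wild-type, 1566 in Arp5 KO, 1341 in Arp8 KO and 876 in Arp8 OE-labelled cells. Both KO cells were above wild-type cells, and the array of Arp8 OE-labelled cells was below. The log2 ratios over wild-type cells were 0.56, 0.30 and -0.32 in the order Arp5 KO, Arp8 KO and Arp8 OE-labelled cells. Probe A_24_P166527 of the same gene gave 175 units in wild-type, 272 in Arp5 KO, 240 in Arp8 KO and 151 in Arp8 OE-labelled cells, with log2 ratios of 0.66, 0.44 and -0.23. Both probes placed the arrays in the same order.

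The remaining members are known NF-kappaB targets. *CD83*, a surface protein of activated B cells and dendritic cells, gave 3227 units in wild-type, 3814 in Arp5 KO, 4705 in Arp8 KO and 3869 in Arp8 OE-labelled cells. It was lowest in wild-type cells and highest in Arp8 KO cells, with log2 ratios over wild-type cells of 0.26 in Arp5 KO, 0.53 in Arp8 KO and 0.24 in Arp8 OE-labelled cells. *BIRC3* encodes cIAP2, a ubiquitin ligase that restrains the noncanonical pathway. Its probe was well above background in Arp8 KO cells, at 17.3 units, and not in Arp5 KO cells, at 6.02, nor in Arp8 OE-labelled cells, at 7.93. Its only spot in wild-type cells gave 41.2 units and was marked as an outlier by the scanner software, so no ratio over wild-type cells was formed. With that spot kept, the log2 ratio over wild-type cells was -2.56 in Arp5 KO, -1.27 in Arp8 KO and -2.24 in Arp8 OE-labelled cells, where the values of Arp5 KO and Arp8 OE-labelled cells are bounds.

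**Figure D4:**
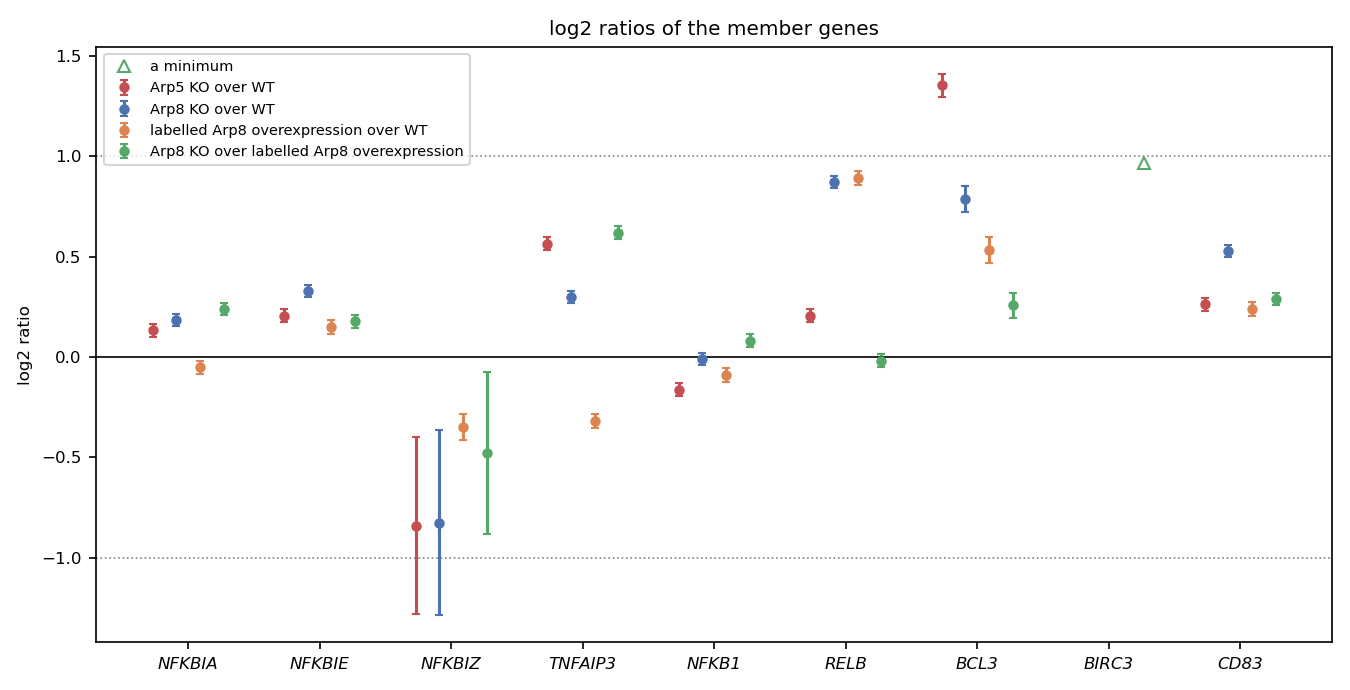
Log2 ratios of the 9 member genes with a probe in the 4 comparisons, with bars of 1 technical SD for the brightness of the probe and dotted lines at 2-fold. *BCL3* in Arp5 KO over wild-type cells, at 1.35, is the only point beyond 2-fold, and the open triangle of *BIRC3* is a minimum.

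The Arp8 KO array was also compared with the array of Arp8 OE-labelled cells, which by the design text carry the Tet-Off system. Of the 9 members that could be read, 0 were higher and 0 lower beyond 2-fold, against 0.763% of all genes higher and 1.08% lower. The median log2 ratio of the members was 0.24, beside 7.22e-05 over all genes, and 7 of the 9 ratios were above 0, against 6752 of 13501 genes overall. *TNFAIP3* had a log2 ratio of 0.62 and *CD83* of 0.29, both higher in Arp8 KO cells, and *NFKBIZ* had -0.48, or -0.26 with normexp. *BIRC3* was at least 1.95-fold higher in Arp8 KO cells, and it passed 2-fold with its dimmer signal left as measured or with the arrays scaled over probes well above background on all 4, while with normexp its log2 ratio fell from 0.97 to 0.19. Since the *ACTR8* probes did not bear out the overexpression label, no direction with respect to Arp8 is drawn from this comparison.

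The other genes of the pathway were examined as lists. None of the 4 other subunits and inhibitors (*RELA*, *REL*, *NFKBIB* and *NFKBID*) was beyond 2-fold in any of the 4 comparisons. *RELA*, the main activating subunit, gave 4036 units in wild-type, 4198 in Arp5 KO, 4584 in Arp8 KO and 4548 in Arp8 OE-labelled cells. The IkappaB kinases and their upstream kinases had 0 of 9 genes beyond 2-fold in any comparison, with a median log2 ratio of -0.07 for Arp5 KO over wild-type cells and 0.04 for Arp8 KO over wild-type cells. The adaptors had 0 of 13 genes that could be read beyond 2-fold, with medians of 0.07 and -0.03, and the other negative regulators had 0 of 8, with medians of -0.14 and -0.02. The medians over all genes were 0.03 and 0.04. For Arp8 OE-labelled over wild-type cells the medians were 0.13 for the kinases, 0.24 for the adaptors and 0.09 for the other negative regulators. The median over all genes was 0.04 there, and 10 of the 13 adaptors had a ratio above 0. With the shares of all genes beyond 2-fold given above, few or no such genes would be counted in lists of these lengths in any case.

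The receptors held genes beyond 2-fold in every comparison. In Arp5 KO cells 1 of the 12 receptors that could be read was higher beyond 2-fold than in wild-type cells and 2 were lower, against 1.16% and 1.4% of all genes, with a median log2 ratio of -0.28. In Arp8 KO cells 1 of 11 was higher and 1 lower, against 1.82% and 1.93%, with a median of -0.35. *TNFRSF1B*, the second TNF receptor, gave 47.4 units in wild-type, 106 in Arp5 KO, 104.6 in Arp8 KO and 87.6 in Arp8 OE-labelled cells. It was above wild-type cells on the 3 other arrays, by log2 ratios of 1.18, 1.12 and 0.86. With normexp the former 2 were within 2-fold, at 0.70 and 0.60. The technical SD is 0.44 to 0.46 with the wild-type signal under 50 units. With the main scaling the *TNFRSF1B* ratios were 2.67 times this SD in Arp5 KO, 2.44 in Arp8 KO and 1.98 in Arp8 OE-labelled cells. *TLR4*, the receptor for lipopolysaccharide, gave 591 units in wild-type, 238 in Arp5 KO, 470 in Arp8 KO and 882 in Arp8 OE-labelled cells, with a log2 ratio of -1.29 in Arp5 KO cells and -1.06 and -1.05 with the other probes. *TNFRSF11A*, the receptor RANK, gave 18.3 units in wild-type cells and was not well above background in any other, so that Arp5 KO cells had at least 2.61-fold less, a call that normexp ended with a log2 ratio of -0.20. *TNFRSF17*, the receptor BCMA of late B-lineage cells, gave 161 units in wild-type, 124 in Arp5 KO, 43.9 in Arp8 KO and 331 in Arp8 OE-labelled cells. It separated the Arp8 arrays, with a log2 ratio of -2.91 between them. In Arp8 OE-labelled cells 2 of 11 receptors were higher than in wild-type cells and 1 was lower, against 1.86% and 1.96% of all genes, with a median log2 ratio of 0.60, and with normexp none of these was beyond 2-fold. Between the Arp8 arrays 3 of 9 were lower in Arp8 KO cells, against 1.08% of all genes, with a median of -0.82, and 2 with normexp, against 0.409%.

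The other NF-kappaB targets had 12 ratios above 0 and 11 below in each KO comparison with wild-type cells, and *CCL3* had no matched probe. In Arp5 KO cells 3 of the 23 that could be read were higher than in wild-type cells beyond 2-fold and 1 was lower, against 1.16% and 1.4% of all genes, and the median log2 ratio was 0.06. In Arp8 KO cells 1 of 23 was higher and 1 lower, against 1.82% and 1.93%, with a median of 0.06. *TNF*, a cytokine that both activates NF-kappaB and is induced by it, gave 57.2 units in wild-type, 436 in Arp5 KO, 124 in Arp8 KO and 87.1 in Arp8 OE-labelled cells. Arp5 KO cells were highest with both probes, with log2 ratios over wild-type cells of 2.95 and 1.49, and in Arp8 KO cells the ratios were 1.09 and 0.41, so that the probes differ in size and only the former passed 2-fold there. *GADD45B*, a stress-response gene, gave 2122 units in wild-type, 5228 in Arp5 KO, 2686 in Arp8 KO and 2409 in Arp8 OE-labelled cells. Its log2 ratio in Arp5 KO cells was 1.32, and 0.82 with the other probe. *IER3*, which is also an early-response gene, gave 1998 units in wild-type, 4469 in Arp5 KO, 2013 in Arp8 KO and 1408 in Arp8 OE-labelled cells, with a log2 ratio of 1.18 in Arp5 KO cells. The lower genes were *CCR7*, a chemokine receptor, in Arp5 KO cells at -1.001 and *IL1B*, a cytokine, in Arp8 KO cells at -1.08. Normexp placed both within 2-fold, at -0.44 and -0.85, and *TNF* in Arp8 KO cells as well, at 0.61. Of this list 1 of 22 genes was higher (0 with normexp) and 0 lower in Arp8 OE-labelled cells, against 1.86% and 1.96% of all genes. Between the Arp8 arrays 0 of 23 differed beyond 2-fold, against 0.763% of all genes higher and 1.08% lower in Arp8 KO cells.

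The immediate early genes, which answer many stimuli within minutes and are not specific to NF-kappaB, were set beside these targets. Like the other lists, this one was chosen with earlier results of these data known, so its counts are not an independent result. Of 12 genes, 5 were higher beyond 2-fold in Arp5 KO cells and 5 in Arp8 KO cells, against 1.16% and 1.82% of all genes, none was lower, and the median log2 ratio over wild-type cells was 0.82 and 0.40. In Arp5 KO cells these were *EGR1*, *FOS*, *JUN*, *FOSB* and *IER2*, and in Arp8 KO cells *JUN*, *FOS*, *EGR1*, *FOSB* and *EGR2*. *FOSB*, a partner of Jun proteins, gave 36.2 units in wild-type, 347 in Arp5 KO, 82.8 in Arp8 KO and 54.5 in Arp8 OE-labelled cells. *FOSB* and *EGR2* in Arp8 KO cells were within 2-fold with normexp. In Arp8 OE-labelled cells 0 of 12 were beyond 2-fold of wild-type cells, against 1.86% of all genes higher and 1.96% lower, with a median of -0.03. In Arp8 KO cells 3 of 12 were higher than on the array of Arp8 OE-labelled cells, against 0.763% of all genes, and 2 with normexp, against 0.349%. The values of *BCL3*, *TNFAIP3*, *TNF*, *GADD45B* and *IER3* come from the same arrays, and whether they rose together with these genes was not tested.

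**Figure D5:**
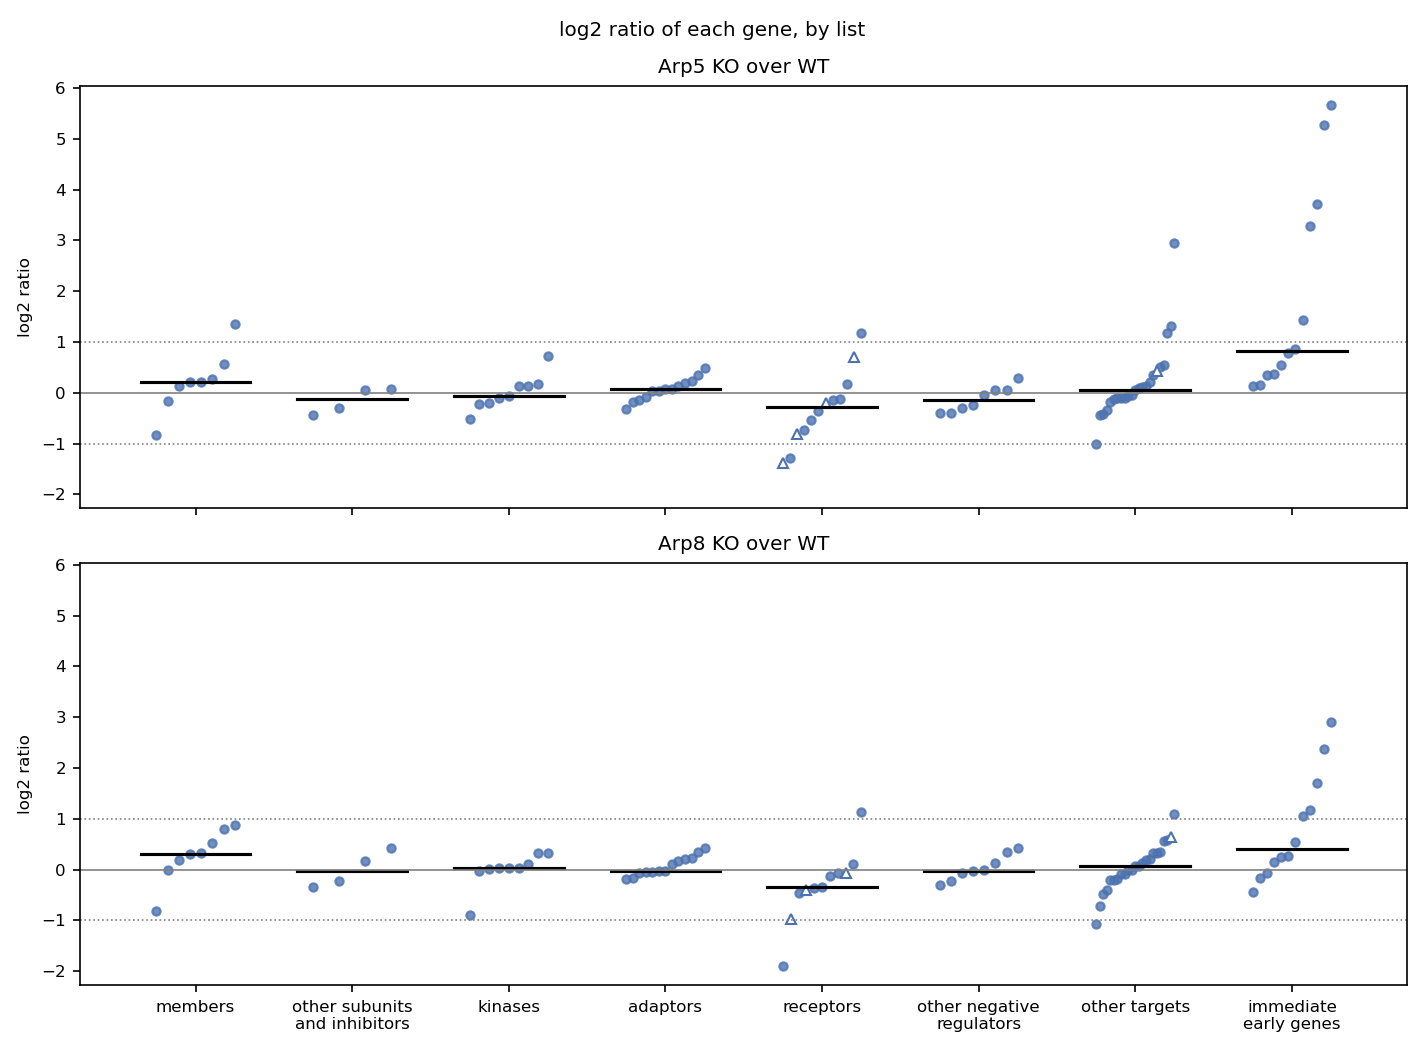
Log2 ratio of each gene that could be read, by list, in Arp5 KO over wild-type cells (top) and Arp8 KO over wild-type cells (bottom), with the median of each list as a black line and dotted lines at 2-fold. Open triangles are bounds, and the highest values are those of immediate early genes, with *EGR1* at 5.66 in Arp5 KO cells.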

How the data were processed

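Per the file headers, Agilent Feature Extraction 10.5.1.1 read the arrays, and the authors deposited what it wrote for every spot. The processed signal deposited by the authors is a linear intensity, background-subtracted and detrended within an array by that software and not normalized across arrays. A value table by the authors was deposited too. Its intensity is the processed signal times 1 factor for each array, set in a way that is not given in the sources used here. Its column medians were 127 (wild-type), 128 (Arp5 KO), 122 (Arp8 KO) and 119 (Arp8 OE-labelled cells). The deposited files also carry the software's codes for outliers, saturation and signal well above background.

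Spots marked as outliers were left out, and the spots of a probe were averaged on the log2 scale. No spot was saturated. The lowest signal well above background was 7.76 units (wild-type), 6.90 (Arp5 KO), 9.44 (Arp8 KO) and 8.87 (Arp8 OE-labelled cells). A gene was represented by its probe with the highest mean signal. Genes were named through transcript accessions and the gene table of GRCh38.p14, which matched 26222 of 41000 probes. The scanner output names another build, so the table served for names only, and promoters come from RefSeq on GRCh38.p14.

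The named genes are the members, *ACTR5*, *ACTR8*, *INO80*, list genes beyond 2-fold in Arp5 KO or Arp8 KO over wild-type cells, cell type markers and the 5 genes nearest to the member with the widest range among those well above background on all 4 arrays. The genes of the list of other subunits and inhibitors, and a list gene without a probe, are named as well. The members and lists were chosen with earlier results of these data known. Alternatives were other scalings, the authors' table, normexp with an offset of 50, other treatments of dim probes, outlier-marked spots kept, the mean over probes and 1.5-fold and 3-fold thresholds. Normexp was run on the median signal. The grouping of repeated probes from 20 to 100 units was added after seeing the data. Calculations were made in numpy 2.4.6 and pandas 2.3.3 (Python 3.11.15), normexp in limma 3.58.1 (R 4.3.3) and plots in matplotlib 3.10.9. The ratio step was tested on simulated data.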

Additional observations from a re-analysis of the deposited data

How the results depend on the processing

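Of 33 log2 ratios of members, 31 kept their direction under all 10 alternatives of scaling, background, filter and probe choice. The exceptions were *NFKB1* in Arp8 KO over wild-type cells and *RELB* in Arp8 KO over Arp8 OE-labelled cells, both close to 0. *BCL3* in Arp5 KO over wild-type cells ranged from 1.20 to 1.35 and stayed beyond 2-fold. No paired analysis was possible because each group has a single array here. The median log2 ratio of the members moved by more than the technical SD as follows. In Arp8 OE-labelled over wild-type cells it was -0.0085 with quantile normalization, 0.012 with the 75th percentile over commonly detected probes (well above background on each of the arrays), 0.0030 with the authors' table and -0.052 with outlier-marked spots kept. In Arp5 KO over wild-type cells it was 0.17 with the authors' table, and in Arp8 KO over wild-type cells it was 0.35 with the mean over probes. In Arp8 KO over Arp8 OE-labelled cells it was 0.27 with the 75th percentile over commonly detected probes and 0.19 with normexp. For that comparison 1 member was higher with this percentile (0.919% of all genes) and with dim signals not raised (0.955%). With outlier-marked spots kept, 1 member was lower in each comparison with wild-type cells, because *BIRC3* could then be read (1.53%, 2.06% and 2.07% of all genes). At 1.5-fold, 1 member was lower in Arp5 KO cells (4.22% of all genes), 2 were higher and 1 lower in Arp8 KO cells (5.88% and 5.78%), 1 was higher in Arp8 OE-labelled cells (6.02%) and 2 were higher between the Arp8 arrays (3.38%). At 3-fold, 0 were higher in Arp5 KO cells (0.328%). *BIRC3* had no ratio with only probes well above background on all 4 arrays. Of 31 list ratios beyond 2-fold, 17 stayed so under every alternative that gave a value, and normexp brought each of the others within 2-fold. With dim signals not raised, further list ratios passed 2-fold, and 3 receptors were lower in Arp8 KO than in wild-type cells (2.53% of all genes). Other causes were not tested. Signals under 50 units limit *NFKBIZ* and *BIRC3*.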
